A study of Mus musculus with 18 samples.

Results

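Efnb2, Ephb3, Epha3, Robo1 and Boc encode cell surface proteins of the ephrin, Slit and Hedgehog guidance systems. They were taken by symbol from a table of RNA-seq read counts, and the 5 genes were 5 of its 40620 rows. The cells were MC3T3-E1, a mouse preosteoblast line from newborn calvaria labelled WT, which stably carried 1 of 3 lentiviral short hairpin constructs: shRcor2-18 or shRcor2-20, directed at the corepressor gene Rcor2, or the control shScramble. Libraries were labelled 0h, 24h and 7d, and osteogenic medium held 10 nM dexamethasone, 50 µg/ml ascorbic acid and 5 mM beta-glycerophosphate. The harvest times that the protocol lists do not include 7d, so that label rests on the sample titles alone. Each construct had 2 samples at 24h and 2 at 7d. At 0h only sample 2 of each construct was used, because sample 1 of all 3 constructs had stood apart in an earlier analysis of these data, so that 15 of 18 libraries entered the comparisons. The labels do not say whether samples came from separate cultures or separate transductions, and the p-values therefore measure the spread between these libraries, which may be technical.

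Ephrins are ligands held in the membrane, and Eph receptors are the receptor tyrosine kinases that bind them on a neighbouring cell, so that both partners can signal at a contact. In bone, the ephrin encoded by Efnb2 is known for contacts with EphB receptors among osteoblasts and between osteoblasts and osteoclasts. Robo receptors bind secreted Slit proteins and repel migrating cells and axons, and Boc is a coreceptor for Hedgehog ligands.

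The 15 libraries held 3504808 to 6139315 counts each. Many row names in the table do not match the reads counted under them, so a name was taken as a gene only in stretches where the order of genes and the levels of families that nearly every cell expresses fitted together. Inside these stretches 23 of 24 family members (95.8%) reached a level of 20 CPM, against 70 of 405 (17.3%) elsewhere. CPM are counts per 1000000 counts of the library, unscaled for these families and TMM scaled for all other values. The stretches were found by such levels in an earlier search of these data. The contrast therefore describes how they were chosen and is no separate check of the names. Ephb3, Epha3, Robo1 and Boc lie in the stretch of chromosome 16, where 15 of 16 family members reached that level. Efnb2 lies in the stretch of chromosome 8, which held only 1 such member, so its name is weakly checked. The row of Rcor2 on chromosome 19 lies outside the stretches and held 207 to 268 CPM with the hairpins, against 195 to 238 CPM with shScramble (log2 difference 0.0961 ± 0.0615, SE; edgeR adjusted p = 0.832), so the knockdown could not be checked from it. None of the 14 osteoblast markers looked for lies in a stretch, so the labelled cell type could not be checked here. Of 8 markers of other cell types that do, 6 had means under 2 CPM, among them Cldn5 (endothelium), Cd86 (leukocytes), Olig1 and Olig2 (oligodendrocyte lineage), each listed at 0. The others, Actn3 (muscle) and Btla (leukocytes), averaged 83.5 and 21.2 CPM, and both were higher at 7d than at 0h. Other cell types are thus not excluded by these markers.

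Neighbouring genes differed widely in level around every member. Next to Efnb2 (24.9 CPM on average), Shcbp1 had 187 CPM, Slc10a2 0.089 CPM, Arglu1 178 CPM and Fam155a 0.0163 CPM. Next to Ephb3 (211 CPM), Chrd had 56.2 CPM, Teddm3 was listed at 0 and Vps8 had 78.9 CPM. Boc (133 CPM) stood beside Cfap44 at 0.452 CPM and BC027231 at 128 CPM. Robo1 (0.671 CPM) stood between Gbe1, the glycogen branching enzyme, at 40.4 CPM and Robo2 at 44.9 CPM, and Epha3, at 0, between Pros1 at 242 CPM and Csnka2ip at 0.05 CPM.

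**Figure D1:**
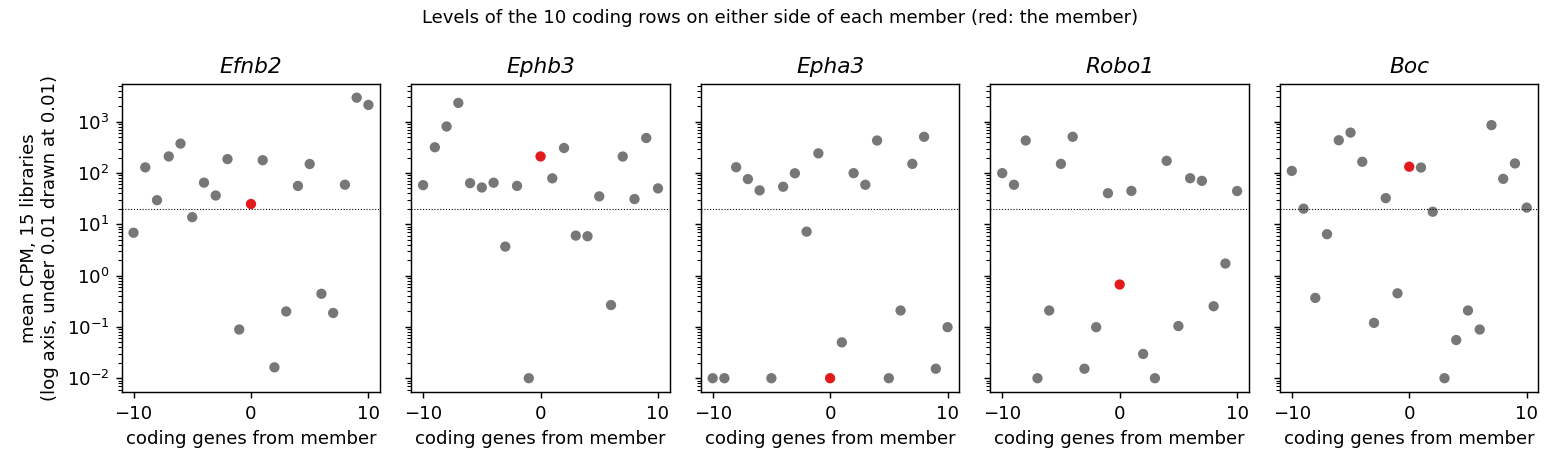
Mean CPM over 15 libraries (log axis) of each member (red) and of the 10 protein-coding rows on either side of it in genome order (grey), with the 20 CPM level dotted. Rows of high and low level are mixed around each member, with Ephb3 at 211, Boc at 133, Efnb2 at 24.9, Robo1 at 0.671 and Epha3 at 0 CPM.

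The 5 genes covered the whole range from well expressed to not detected. Per kilobase of annotated exon, the mean level was 31.8 CPM for Ephb3, 29.9 CPM for Boc, 3.63 CPM for Efnb2 and 0.0406 CPM for Robo1, with no count for Epha3. The order of Ephb3 and Boc is not settled, since their ranges over libraries overlap on this scale. In all comparisons together, none of the 4 members that could be tested was called, a call being a Benjamini-Hochberg adjusted p under 0.05 in edgeR's quasi-likelihood test over 12930 rows. The share of all rows called was 1.86% for 24h against 0h, 5.76% for 7d against 0h and 2.34% for 7d against 24h. It was 0.155%, 0.0155% and 0.0387% for the hairpins against shScramble at 0h, 24h and 7d, and 0.00773% over all times. At such shares, 0 calls among 4 genes is near the background. Among the 546 tested rows of the stretches, calls over time were more frequent. They were 9 higher and 6 lower for 24h against 0h, 32 and 33 for 7d against 0h, and 16 and 10 for 7d against 24h. At these counts too, 0 of 4 is no result about the genes, of which Robo1 was near the limit of detection.

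Efnb2 (ENSMUSG00000001300, chromosome 8), the ephrin ligand, was highest at 0h. At 24h it had 8.88 and 22.9 CPM with shRcor2-18, 25.8 and 24.5 CPM with shRcor2-20, and 7.20 and 27.3 CPM with shScramble, in samples 1 and 2 in this order. At 0h the values were 46.2, 45.1 and 32.1 CPM with shRcor2-18, shRcor2-20 and shScramble. Every library at 24h lay below every library at 0h, with means of 19.4 ± 8.97 CPM at 24h (SD, n = 6) and 41.1 ± 7.86 CPM at 0h (SD, n = 3). Of all rows, 3.68% separated the libraries of these times in that direction. The log2 difference, 24h minus 0h, was -1.09 ± 0.59 (SE), with an edgeR adjusted p of 0.557 and an unadjusted p of 0.100. It was thus not called in this fit, which pairs no samples. With sample number in each construct as a block it stood at -0.72 ± 0.19 (SE), with an edgeR adjusted p of 0.256. The SE was smaller there, and the difference was again not called. In bulk RNA, fewer cells of a type and less RNA per cell cannot be told apart. All libraries used at 0h were sample 2, and among sample 2 alone the values were 22.9, 24.5 and 27.3 CPM at 24h, against 46.2, 45.1 and 32.1 CPM at 0h in the same constructs.

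At 7d Efnb2 had 8.55 and 29.6 CPM with shRcor2-18, 32.7 and 20.6 CPM with shRcor2-20, and 8.94 and 33.1 CPM with shScramble. The values at 7d overlap those at 0h, since sample 2 of shScramble at 7d lay above shScramble at 0h; of all rows tested, 7.78% lay wholly lower at 7d. The log2 difference was -0.88 ± 0.59 for 7d minus 0h (edgeR adjusted p = 0.463) and 0.21 ± 0.50 for 7d minus 24h (edgeR adjusted p = 0.919). Within the constructs, 24h minus 0h stood at -1.53 ± 1.02 with shRcor2-18, -0.84 ± 1.02 with shRcor2-20 and -0.90 ± 1.03 with shScramble, each fitted with 1 library at 0h, whose spread is taken from the other groups. The direction was the same in all 3 constructs, and none of these differences was called (edgeR adjusted p = 0.972, 0.945 and 0.924; 0.302%, 0.348% and 0.371% of all rows were).

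Ephb3 (ENSMUSG00000005958, chromosome 16), the receptor for ephrin-B ligands, had the highest mean CPM of the members, on a scale not corrected for length, and its 3 libraries at 0h lay close together. At 24h it had 127 and 193 CPM with shRcor2-18, 214 and 178 CPM with shRcor2-20, and 134 and 219 CPM with shScramble, in samples 1 and 2. At 0h it had 263, 270.5 and 262 CPM in the same constructs. All 6 libraries at 24h lay below all 3 at 0h, as for Efnb2 and for 3.68% of all rows. The log2 difference was -0.58 ± 0.21 (SE), with an unadjusted p of 0.0248 and an edgeR adjusted p of 0.323, so it was not called. With sample 1 of each construct at 0h included it stood at -0.99 (edgeR adjusted p = 0.0739). By 7d the values spread to 181 and 228 CPM with shRcor2-18, 286 and 187 CPM with shRcor2-20, and 201 and 226 CPM with shScramble. The sample of 286 CPM lay above every library at 0h, so the times overlap. The difference was -0.29 ± 0.22 for 7d minus 0h (edgeR adjusted p = 0.523) and 0.30 ± 0.18 for 7d minus 24h (edgeR adjusted p = 0.441).

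Boc (ENSMUSG00000022687, chromosome 16), the Hedgehog coreceptor, averaged 146 ± 25.3 CPM at 0h (SD, n = 3), 131 ± 31.9 CPM at 24h (SD, n = 6) and 129 ± 30.1 CPM at 7d (SD, n = 6). With shRcor2-18 it had 159 CPM at 0h, 94.8 and 164 CPM at 24h, and 90.7 and 172 CPM at 7d. With shRcor2-20 the values were 162 CPM at 0h, 149 and 146 CPM at 24h, and 127 and 154 CPM at 7d. With shScramble they were 117 CPM at 0h, 86.9 and 144 CPM at 24h, and 105 and 126 CPM at 7d. The times overlapped throughout, and the log2 difference was -0.15 ± 0.26 for 24h minus 0h, -0.17 ± 0.26 for 7d minus 0h and -0.01 ± 0.22 for 7d minus 24h (edgeR adjusted p = 0.941, 0.813 and 1.00). The sign of the 2 differences against 0h is not settled, since it turned when sample number entered the fit.

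**Figure D2:**
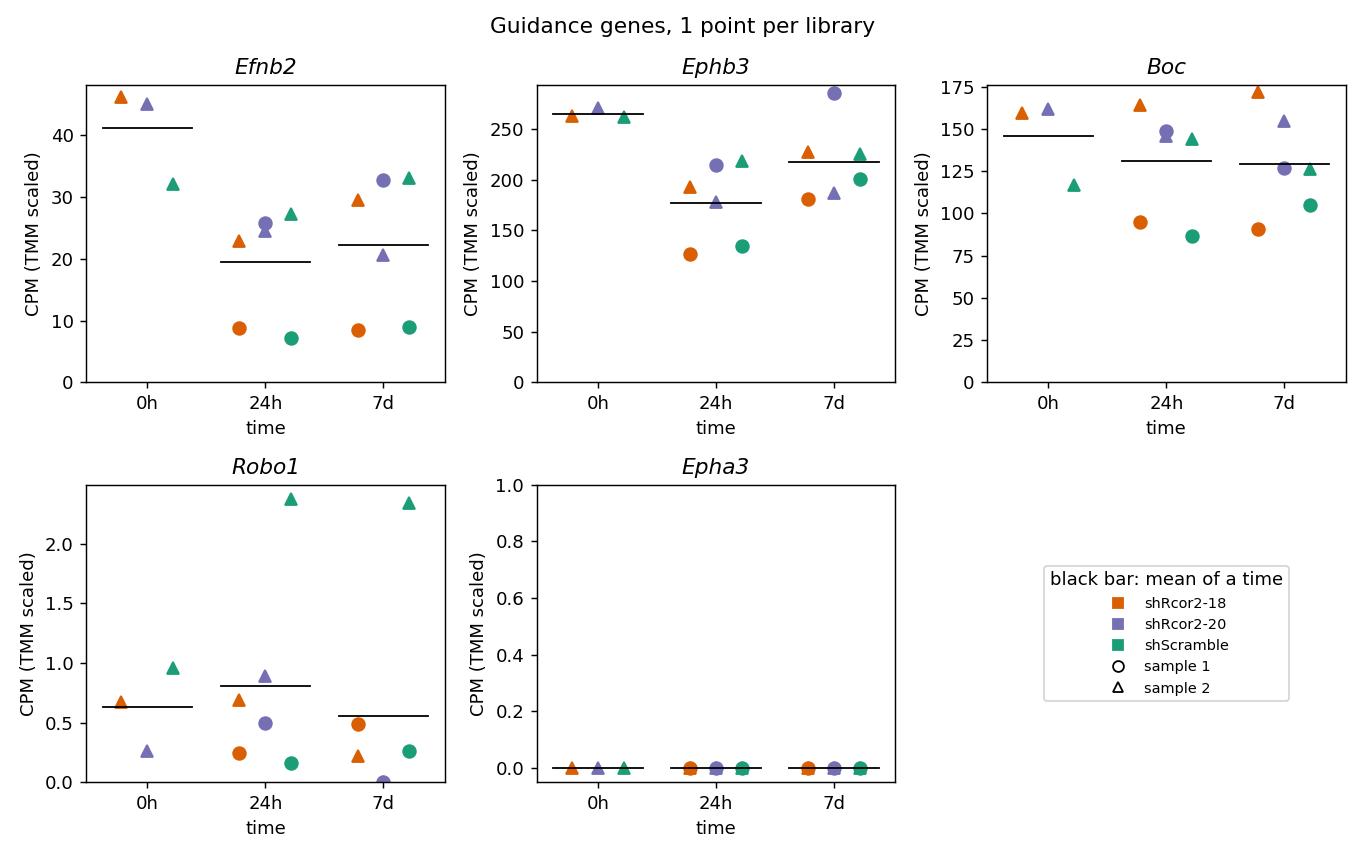
CPM of each member in every library (points; colour, construct; symbol, sample number) at 0h, 24h and 7d, with the mean of a time as a black bar. Efnb2 and Ephb3 at 24h lie below their 0h values, Boc overlaps at all times, Robo1 stands out in sample 2 of shScramble (2.38 and 2.34 CPM) and Epha3 is at 0 in every library.

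Robo1 (ENSMUSG00000022883, chromosome 16), a Slit receptor, was near the limit of detection. It had 43 counts in the 15 libraries together, where 3 counts, the limit that a count of 0 allows, amount to 0.48 to 0.878 CPM per library. Sample 2 of shScramble held 12 of these counts at 24h and 8 at 7d. At 24h the other libraries held 1 and 3 counts with shRcor2-18, 2 and 4 with shRcor2-20 and 1 in sample 1 of shScramble. At 7d they held 2 and 1 with shRcor2-18, 0 and 0 with shRcor2-20 and 1 in sample 1 of shScramble, and at 0h 3, 1 and 4 with shRcor2-18, shRcor2-20 and shScramble. Robo1 passed the filter on low counts through the library of 12 counts alone. That library is one of shScramble at 24h. No difference between the hairpins and shScramble or between the times is therefore read from the fit of Robo1. Sample 1 of shScramble had 1 count at 24h and 1 at 7d, so the high counts were not shared by the 2 samples of the control.

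Epha3 (ENSMUSG00000052504, chromosome 16), a receptor that mainly binds ephrin-A ligands, had 0 counts in all 18 libraries and was not tested. Over the 15 libraries together this allows a level of up to 0.0461 CPM, which covers counting error only. Epha6, its relative in the same stretch, was likewise at 0 in the 15 libraries.

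The hairpins against Rcor2 did not separate from shScramble for any of the well expressed members. Over all times, hairpins minus shScramble stood at 0.28 ± 0.50 on the log2 scale for Efnb2, 0.02 ± 0.18 for Ephb3 and 0.32 ± 0.22 for Boc (SE; edgeR adjusted p = 1.00, 1.00 and 0.853). By time the difference for Boc was 0.46 ± 0.47 at 0h, 0.26 ± 0.33 at 24h and 0.23 ± 0.33 at 7d. For Efnb2 it was 0.51 ± 1.07, 0.22 ± 0.76 and 0.11 ± 0.75 at the same times, and for Ephb3 0.03 ± 0.38, 0.00 ± 0.27 and 0.04 ± 0.27. With each hairpin alone over all times, Efnb2 stood at 0.09 ± 0.58 with shRcor2-18 and 0.46 ± 0.57 with shRcor2-20, and Boc at 0.27 ± 0.25 and 0.37 ± 0.25, where 0.101% and 0.0387% of all rows were called. The change of the hairpin difference between 24h and 7d, tested itself, was -0.11 ± 1.06 for Efnb2, 0.04 ± 0.38 for Ephb3 and -0.03 ± 0.46 for Boc (edgeR adjusted p = 1.00 for each), with 0.0541% of all rows called.

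**Figure D3:**
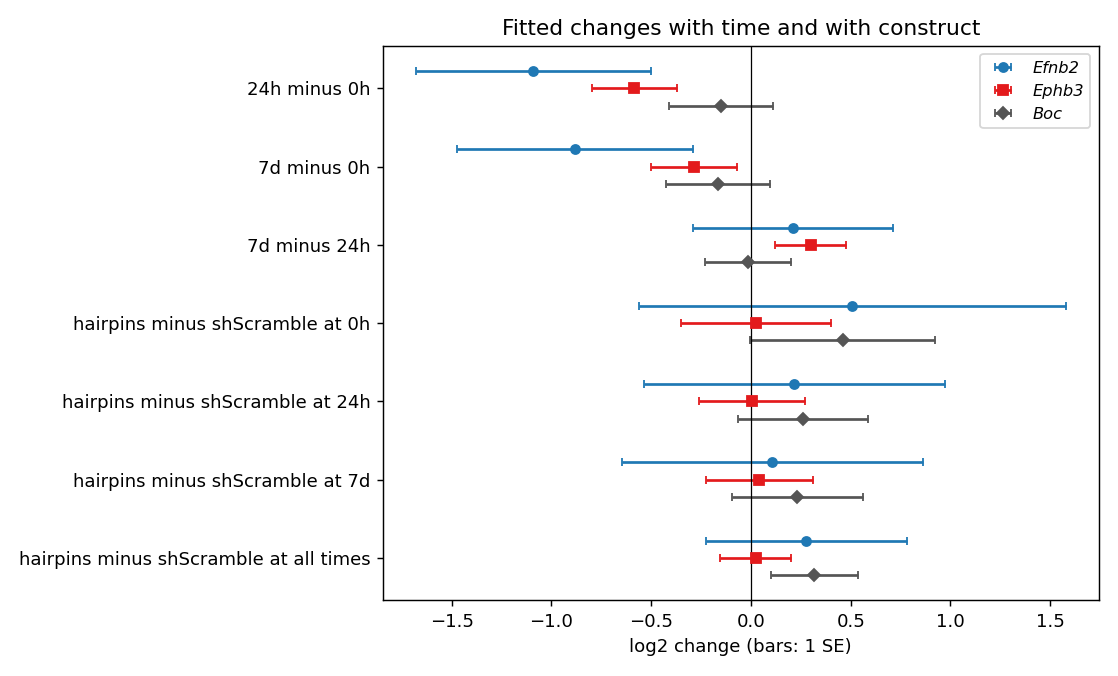
Fitted log2 differences (points; bars, 1 SE) of Efnb2, Ephb3 and Boc for 3 comparisons of the times and 4 of the hairpins with shScramble. Efnb2 lies farthest below 0, at -1.09 for 24h minus 0h and -0.88 for 7d minus 0h, followed by Ephb3 at -0.58 for 24h minus 0h, and no point is called.

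The samples of 1 construct differed widely for the ephrin genes. Sample 1 of shRcor2-18 and sample 1 of shScramble were the lowest 2 of 6 libraries for Efnb2 and Boc at both 24h and 7d, and for Ephb3 at 24h. At 7d they had 8.55 and 8.94 CPM of Efnb2, while the other 4 libraries had 20.6 to 33.1 CPM. These libraries held 3911277 and 6139315 counts at 24h and 4176008 and 3735886 counts at 7d with shRcor2-18 and shScramble, within the range of the 15 libraries. Over all tested rows these libraries of different constructs were each other's nearest at both times, at a correlation of 0.873 at 24h and 0.865 at 7d, against 0.853 and 0.852 between the samples of shRcor2-18 and 0.860 and 0.850 between those of shScramble. Sample 1 of shRcor2-20 and sample 2 of shScramble were also each other's nearest at 7d and had 32.7 and 33.1 CPM of Efnb2 and 127 and 126 CPM of Boc there. Sample 2 of shRcor2-18 and sample 2 of shRcor2-20 were each other's nearest at both times and had 172 and 154 CPM of Boc at 7d. Libraries that look alike thus carry different construct labels, and what they share beyond the labels was not tested.

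Efnb2 ran alike with both Ephb3 and Boc. Over the 15 libraries the Pearson correlation of log2 CPM was 0.834 between Efnb2 and Ephb3, 0.820 between Efnb2 and Boc and 0.576 between Ephb3 and Boc. Over the 12 libraries of 24h and 7d it was 0.771, 0.850 and 0.572 for the same pairs, so which member was most like Efnb2 turned without the libraries at 0h. The Spearman correlation over the 15 libraries was 0.896, 0.546 and 0.454. These are descriptions over libraries that share times, constructs and the likenesses above. Among the in-register genes tested, the most like Efnb2 were Yeats2 (0.913), Carhsp1 (0.891) and Snai2 (0.889), a zinc finger repressor. The most like Ephb3 were Efnb2, Nmral1 (0.803) and Pdia5 (0.780), a disulfide isomerase, and the most like Boc were Hunk (0.910), a kinase, Yeats2 (0.907) and Spice1 (0.853). With Spearman correlation in place of Pearson, 0 of the 3 genes most like Efnb2 were the same, 1 of 3 for Ephb3 and 2 of 3 for Boc. For Robo1 the nearest were Snapc2 (0.693), Wdr5b (0.642) and Drap1 (0.636), at counts too low to read.

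**Figure D4:**
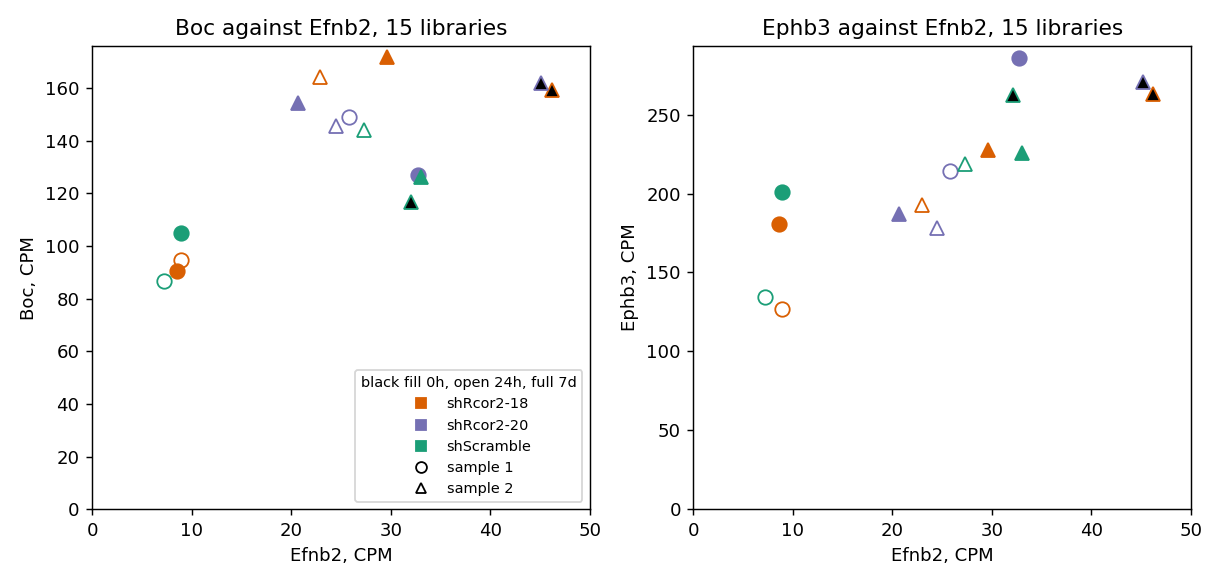
CPM of Boc (left) and Ephb3 (right) against Efnb2 in 15 libraries (colour, construct; symbol, sample number; black fill 0h, open 24h, full colour 7d). The 4 libraries of sample 1 of shRcor2-18 and shScramble at 24h and 7d lie apart at 7.20 to 8.94 CPM of Efnb2, and the 3 libraries at 0h lie highest for Ephb3 apart from 1 library at 286 CPM.

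The promoters of Efnb2 and Ephb3 are shown because both genes were lower in every library at 24h than in any used at 0h. RefSeq's table for GRCm38.p6 holds a promoter, 250 bases before to 50 after the start, for 4 of the 5 members, Boc not among them. In the window chr8:8661193-8661492 (minus strand) of Efnb2 and chr16:21204545-21204844 (plus strand) of Ephb3, capitals mark matches of the motifs searched on both strands, which do not overlap each other there.
Efnb2: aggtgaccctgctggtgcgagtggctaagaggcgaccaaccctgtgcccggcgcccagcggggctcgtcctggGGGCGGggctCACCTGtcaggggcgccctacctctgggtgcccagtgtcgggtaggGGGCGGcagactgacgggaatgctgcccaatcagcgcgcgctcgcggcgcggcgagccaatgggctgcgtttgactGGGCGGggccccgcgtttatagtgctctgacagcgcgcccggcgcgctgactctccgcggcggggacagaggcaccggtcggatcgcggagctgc
Ephb3: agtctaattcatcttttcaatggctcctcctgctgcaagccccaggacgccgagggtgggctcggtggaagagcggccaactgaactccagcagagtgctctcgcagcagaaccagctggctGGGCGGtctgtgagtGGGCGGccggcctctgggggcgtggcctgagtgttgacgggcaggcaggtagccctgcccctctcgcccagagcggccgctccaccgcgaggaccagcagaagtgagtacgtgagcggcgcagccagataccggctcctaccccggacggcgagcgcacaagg
Efnb2 held 3 GC boxes (GGGCGG) and 1 Snail-type E-box (CACCTG), and Ephb3 held 2 GC boxes. Of 32817 promoters in the table, 35.6% held a GC box and 20.2% the E-box. Neither window held the RBPJ motif GTGGGAA, the RUNX motif TGTGGT or the glucocorticoid receptor core motif AGAACA, which 6.39%, 16.8% and 18.97% of promoters held. Both windows were rich in G and C, at 72.3% with 35 CpG for Efnb2 and 66.7% with 23 CpG for Ephb3, against medians of 52.7% and 7 over all promoters. A match describes these letters and is not a binding site.

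Robo2, the other Slit receptor in the same stretch, was looked at beside Robo1 and held enough reads to compare. At 7d it had 23.0 and 185 CPM with shRcor2-18, 46.6 and 183 CPM with shRcor2-20, and 22.9 and 45.9 CPM with shScramble. At 24h it had 14.8 and 22.7 CPM with shRcor2-18, 17.6 and 28.5 CPM with shRcor2-20, and 13.1 and 12.7 CPM with shScramble. At 0h the 3 constructs had 19.9, 22.4 and 15.1 CPM in the same order. The libraries at 7d split into 3 pairs of nearly equal value, 185 and 183, 46.6 and 45.9, and 23.0 and 22.9 CPM, and each pair joins the libraries that were each other's nearest over all rows. The lowest pair overlaps the values at 24h. The log2 difference was 2.07 ± 0.55 for 7d minus 24h (edgeR adjusted p = 0.0915, unadjusted p = 0.00520) and 1.98 ± 0.71 for 7d minus 0h (adjusted p = 0.166), so neither was called. It was called for 7d minus 24h in 4 other settings, at 2.08 with DESeq2 (adjusted p = 0.00186), 2.09 with time and construct as additive terms (0.0259), 2.05 over in-register rows alone (0.0301), and 2.34 without sample 1 of shRcor2-18 at 7d (0.0471). Of the 9 other settings that left out none of the 15 libraries, 6 made no call, at edgeR adjusted p from 0.0621 (shared block) to 0.281 (no filter). The other 14 fits that left out 1 library made no call, and the 15 fits ranged from 1.34 to 2.34 with adjusted p up to 0.217. The lowest value was without sample 2 of shRcor2-18 at 7d, the library of 185 CPM. For 7d minus 0h it was called with DESeq2 (1.98, adjusted p = 0.0199) and with all 18 libraries (2.06, adjusted p = 0.0345), while leaving out 1 library gave 1.25 to 2.25 and no call, the lowest again without sample 2 of shRcor2-18 at 7d. The remaining 7 of the 9 other settings made no call for 7d minus 0h, with edgeR adjusted p up to 0.457 (no filter).

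**Figure D5:**
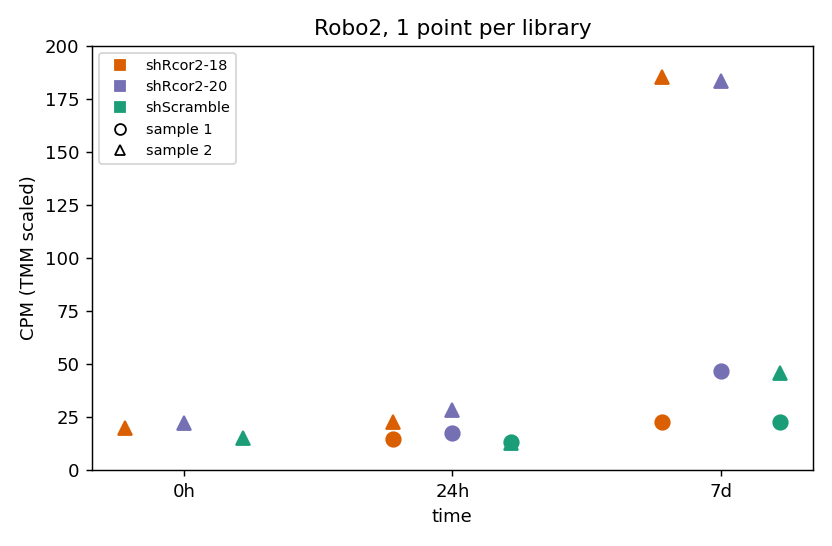
CPM of Robo2 in every library at 0h, 24h and 7d (colour, construct; symbol, sample number). At 7d sample 2 of each hairpin stands at 185 and 183 CPM, and sample 1 of shRcor2-18 and of shScramble at 23.0 and 22.9 CPM, near the values at 24h.

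Of 146 genes in 5 lists of guidance receptors, ligands and their effectors, 25 lie in a stretch and 19 could be tested. For 24h against 0h, 2 were called higher and 1 lower (1.47% and 0.387% of all rows), with a median log2 difference of 0.09 against 0.06 for all rows. For 7d against 0h it was 2 higher and 2 lower (3.27% and 2.49% of all rows; median -0.17 against 0.07), and for 7d against 24h 0 higher and 1 lower (1.15% and 1.18% of all rows; median -0.02 against -0.02). The list genes come only from the stretches, where calls were more frequent than over all rows in each of these comparisons. Of the 546 in-register rows tested, 32 were called higher and 33 lower for 7d against 0h. For 24h against 0h it was 9 and 6 of these rows, and for 7d against 24h 16 and 10. The called genes were all intracellular effectors, of which 12 were tested, and none of the 7 other genes tested was called. Among these Rtn4r, the Nogo receptor, averaged 19.8 ± 15.8 CPM at 7d and 7.05 ± 6.31 CPM at 24h (log2 difference 1.51 ± 0.66; edgeR adjusted p = 0.284). Mcf2l, a guanine nucleotide exchange factor on chromosome 8, averaged 67.3 ± 10.9 CPM at 24h (SD, n = 6) and 8.37 ± 1.48 CPM at 0h (SD, n = 3), a log2 rise of 3.01 ± 0.25 (SE; edgeR adjusted p = 0.00133). The name of Mcf2l is weakly checked, since it lies in the same stretch as Efnb2. Cblb, a ubiquitin ligase that acts on receptor tyrosine kinases, averaged 173 ± 10.2 CPM at 24h and 90.1 ± 15.3 CPM at 0h, a rise of 0.95 ± 0.11 (edgeR adjusted p = 0.00423). Tnk2, a kinase bound by Cdc42, averaged 116 ± 11.9 CPM at 24h and 235 ± 25.9 CPM at 0h and fell by 1.01 ± 0.17 (edgeR adjusted p = 0.0255). Arhgap31, a GTPase-activating protein for Rac and Cdc42, averaged 236 ± 29.8 CPM at 7d and 453 ± 52.2 CPM at 24h and fell by 0.94 ± 0.11 (edgeR adjusted p = 0.00637). Mcf2l, Cblb and Tnk2 were also called for 7d against 0h (2.82, 1.14 and -0.88), as was Arhgap31 (-0.61 ± 0.13, edgeR adjusted p = 0.0364). The call of Arhgap31 against 0h was lost in 11 of 15 fits that left out 1 library (adjusted p up to 0.0940), and held without either 24h sample of shRcor2-18, sample 2 of shScramble at 7d or sample 1 of shRcor2-20 at 7d. Tnk2 at 24h lost its call in 6 such fits (adjusted p up to 0.0803): those that left out sample 2 of shScramble at 0h, either 24h sample of shScramble or shRcor2-20, or sample 1 of shRcor2-18 at 24h. Tnk2 at 7d lost its call in 3 such fits, which left out sample 2 of shScramble at 0h or sample 1 of shScramble or shRcor2-18 at 7d (adjusted p up to 0.0727). With all 18 libraries Cblb lost its calls (0.51 at 24h and 0.72 at 7d; adjusted p = 0.190 and 0.0544), and Arhgap31 its call against 24h (adjusted p = 0.324). With sample number in each construct as a block, the calls of Cblb and Tnk2 for 24h against 0h and of Arhgap31 for 7d against 0h were lost (adjusted p = 0.0604, 0.0615 and 0.0695). With the number shared by the constructs as a block, Tnk2 lost its calls against 0h (adjusted p = 0.0725 at 24h and 0.0575 at 7d). A pair of markers of other cell types moved with time as well, Actn3 of muscle (80.4 ± 21.9 CPM at 24h and 6.09 ± 3.85 CPM at 0h; log2 rise 4.03 ± 0.34) and Btla of lymphocytes (44.0 ± 20.6 CPM at 7d and 2.66 ± 1.03 CPM at 0h; 4.08 ± 0.71), and their part in the values above was not tested.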

How the data were processed

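RNA from MC3T3-E1 cells was sequenced as 100 bp reads, per the labels' protocols. The deposited values are raw read counts per gene, 1 column per library for 18 libraries. Per the submitters' processing notes, FastQC, TopHat2 2.0.9, mm9, DESeq and DESeq2 were used; the sources used here do not give the counting program or its handling of strand. Gene order, names and exon lengths came from GENCODE vM21 (97.6% of rows found). Because the notes name mm9, only the RefSeq windows carry coordinates. The stretches with trusted names run from Mefv to Cbr3, Insr to Erich1 and Ighmbp2 to Gpha2, as found in an earlier search of these data.

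Counts were tested with edgeR 4.0.16 in R 4.3.3 (filterByExpr over 9 groups, TMM, robust quasi-likelihood fit of 9 group means), which left 12930 rows and 6 residual degrees of freedom. SE is the log2 difference divided by the square root of F. CPM are TMM scaled over the tested rows, except the levels of the families used to check the stretches, which use library totals. Alternatives were DESeq2 1.42.0, other scalings, no filter, all 18 libraries, in-register rows alone, replicate blocks, additive terms and leaving out each library. The procedure was tested on simulated data. Members, lists, naming rule (all members, their 3 most alike in-register genes, list members called over time) and stretches were chosen with earlier results of these data known. Robo2 was singled out after its values were seen.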

Additional observations from a re-analysis of the deposited data

Results flagged for a closer look

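Robo1 in sample 2 of shScramble lay far from the other 5 libraries of its time, at 2.38 CPM (2.377) at 24h and 2.34 CPM (2.341) at 7d. The gap to the next library was 0.671 and 0.791 of the whole range. The rule flags about 1 in 20 such groups by chance when values are normally distributed, a rate that need not hold for counts this low. At these counts (12 and 8) the values are imprecise. The library of 12 counts is also the one through which Robo1 passed the filter.

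Sample 1 of the hairpins at 0h, left out of every comparison, held more of some members than the shScramble sample 1 of that time. Efnb2 had 82.66 CPM in sample 1 of shRcor2-20 at 0h, against 31.95 CPM in sample 1 of shScramble. Ephb3 had 413.3 CPM in sample 1 of shRcor2-18 and 589.1 CPM in sample 1 of shRcor2-20, against 326.0 CPM in that of shScramble. Boc had 146.0 and 255.7 CPM in the same libraries, against 119.9 CPM with shScramble. These CPM use the scaling of all 18 libraries. Values are given where the counting interval of the hairpin library lay wholly above that of shScramble, and lower values were not looked for. The libraries stood apart from the others, and the differences were not tested beyond this counting error.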

How the results depend on the processing

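No member was called under any setting or with any library left out. The lowest adjusted p of a member was that of Ephb3 for 24h minus 0h with all 18 libraries (-0.99, adjusted p = 0.0739). Some values changed sign. Boc stood at 0.065 and 0.055 for 24h and 7d minus 0h with a replicate block of the sample number in each construct and at 0.075 and 0.061 with the number shared by the constructs, and Robo2 at 0.55 and 0.54 for 24h minus 0h in these fits. With all 18 libraries, Robo1 stood at -0.40 and Arhgap31 at -0.41 for 24h minus 0h (0.41 and 0.33 with 15), Boc at 0.0022 for 7d minus 24h and Robo1 at 0.34 for hairpins minus shScramble at 0h (-1.14 with 15). For the hairpins, Ephb3 stood at -0.039, -0.016 and -0.017 at 0h, 24h and all times with library size only, and at -0.033 at 24h with no filter. Leaving out 1 library moved 24h minus 0h between -0.10 and 0.79 for Robo1 and between -0.25 and 0.035 for Robo2, and 7d minus 24h between -0.20 and 0.63 for Efnb2, -0.19 and 0.14 for Boc and -0.00031 and 0.24 for Tnk2. For the hairpins it moved Efnb2 between -0.45 and 1.46 at 24h and -0.55 and 1.33 at 7d, Ephb3 between -0.31 and 0.39, -0.13 and 0.18, and -0.079 and 0.15 at 24h, 7d and all times, and Boc between -0.060 and 0.66 at 24h and -0.033 and 0.43 at 7d.

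Counts of called rows moved more. For 24h against 0h, 7d against 0h and 7d against 24h, DESeq2 called 578, 1406 and 1076 rows, in-register rows alone (546 tested) 32, 146 and 91, and the block within each construct 56, 432 and 169. Additive terms gave 753 and all 18 libraries 38 for 7d against 24h. For the hairpins at 0h, 24h, 7d and all times, DESeq2 called 146, 29, 21 and 109 rows, while all 18 libraries and in-register rows alone called 0 at each time and additive terms 0 over all times; at an unadjusted p under 0.05 in edgeR the 18 libraries gave 235, 160, 188 and 228 rows, the in-register rows 61, 5, 8 and 37, and additive terms 647. No filter gave 41, 4 and 20 at 0h, 24h and all times, library size only 8 over all times, and the shared number 12 at 0h. Leaving out 1 library gave 139 to 231, 447 to 762 and 120 to 307 for the times, and 9 to 24, 2 to 12, 5 to 15 and 0 to 14 for the hairpins. The count of 120 was without sample 1 of shRcor2-20 at 24h, 139 without its sample 2 at 0h and 447 without sample 2 of shScramble at 0h. The genes most alike were shared with the reported ones in 0, 1, 2 and 1 of 3 cases for Efnb2, Ephb3, Boc and Robo1 by Spearman correlation, and in 1, 1, 2 and 2 over the 12 libraries of 24h and 7d, a choice made after the data were seen, as was testing Robo2 and the named effectors and markers under every setting. The cause of these shifts was not tested.

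Libraries of the same construct and number at 24h and 7d deviated together at only 0.024 to 0.052 over all 12930 rows tested, so the number was not taken as a pairing. Over the 5044 rows with a mean of 20 CPM or more this correlation was -0.064 to 0.088. Over the 546 in-register rows it was 0.241 to 0.441, and each library correlated best with its own number there, a hint from the data and not from the design. With 2 samples in a group, the deviations of sample 2 only mirror those of sample 1. The choice thus depends on which rows are used, and it was made with the block fits already run and seen. Under the block in each construct, Efnb2 stood at -0.72 ± 0.19 (SE) for 24h minus 0h (edgeR adjusted p = 0.256). Ephb3 stood at -0.53 ± 0.13 (SE) there (edgeR adjusted p = 0.242). Depth limits Robo1, with 0 to 12 counts in each of the 15 libraries used, and Epha3, with 0 in each.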
